A study of Mus musculus with 12 samples.

Results

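The effect of acetate on H3K27ac in cells given no inhibitor was followed in 4 of the 12 ChIP-seq libraries of the series, 2 treated with acetate and 2 with vehicle. They were chosen by treatment label alone. All libraries came from 4T1 cells, an established mouse mammary carcinoma line that spreads to distant organs, so every value below describes 1 line in culture. The acetate libraries received 5 mM acetate for 48 h with no etomoxir and no SB204990, and the vehicle libraries received none of these agents for the same 48 h. Of the other libraries, 2 held etomoxir at 50 µM, 2 held etomoxir at 50 µM with acetate at 5 mM, 2 held etomoxir and SB204990 at 50 µM each, and 2 held both inhibitors with acetate at 5 mM. Every library carried human chromatin added at 7.5% as a spike-in. The library names carry 1 of a pair of suffixes, here set 1 and set 2, and each treatment has 1 library in each set. Neither the meaning of the suffix nor whether the libraries came from separate cultures is given in the labels, so all p-values measure only the spread between these libraries, which may be technical.

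H3K27ac is histone H3 acetylated at lysine 27, a mark of active promoters and enhancers. Histone acetyltransferases such as p300 (Ep300) and CBP (Crebbp) write it with acetyl groups taken from acetyl-CoA, and histone deacetylases remove it. Cells make acetyl-CoA from citrate with ATP citrate lyase (Acly), the target of SB204990, and from acetate with acetyl-CoA synthetase (Acss2). Etomoxir inhibits carnitine palmitoyltransferase (Cpt1a), which admits long-chain fatty acids to mitochondria for oxidation. The comparison of acetate with vehicle asks what added acetate does to the mark while these routes are open.

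Each library is a column of values for 126464 intervals of the mouse genome (mm10, 1-based coordinates). A deposited value is the number of reads in the interval multiplied by a scaling factor that the authors derived from the human spike-in. It can therefore show a change of the whole mark, but it also keeps the sequencing depth of the library. The share scale divides each interval by the sum of its column and scales it to 1000000 reads. It removes depth and factor together, so it can show only which intervals gained or lost relative to the others. All ratios below are acetate to vehicle unless another pair is named, and they are given for each set because the factors of the sets lie on separate scales, with a factor of 1 in 1 library of each set.

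On the deposited scale the acetate libraries held more H3K27ac than the vehicle libraries in both sets, and the difference was spread over the genome. The scaled total was 6824977 in the vehicle library and 10066498 in the acetate library of set 1, a 1.47-fold ratio. In set 2 it was 7676895 and 9990920, a 1.30-fold ratio. The mean log2 ratio was 0.47 ± 0.13 (SD between sets, n = 2). The exact two-sided permutation test over libraries gave p = 0.33, the smallest that 2 libraries against 2 can reach. It sets libraries of both sets side by side, although their factors lie on separate scales. Exchanging the libraries only within sets gave an exact two-sided permutation p = 0.5, again the smallest possible, so neither test could pass 0.05.

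The ratio of the totals is the product of a ratio of reads and a ratio of factors, and the sets divided it differently. The vehicle and acetate libraries had 14601286 and 16676442 reads in intervals in set 1, and 9689378 and 11597199 in set 2. The reads were thus 1.14-fold and 1.2-fold higher with acetate. The factors were 0.467 and 0.604 in set 1, a 1.29-fold ratio, and 0.792 and 0.861 in set 2, a 1.09-fold ratio. With the share multiplied by the factor, the mean log2 ratio was 0.24 instead of 0.47. That product takes depth out if the factor holds no correction for it, and takes it out again if the factor does. The spread between the sets on that scale is that of the factors, 0.18 (SD of the log2 ratio, n = 2). The size of the difference thus depended on the choice of scale and differed between the sets. The plot of reads, factors and totals shows both steps.

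**Figure D1:**
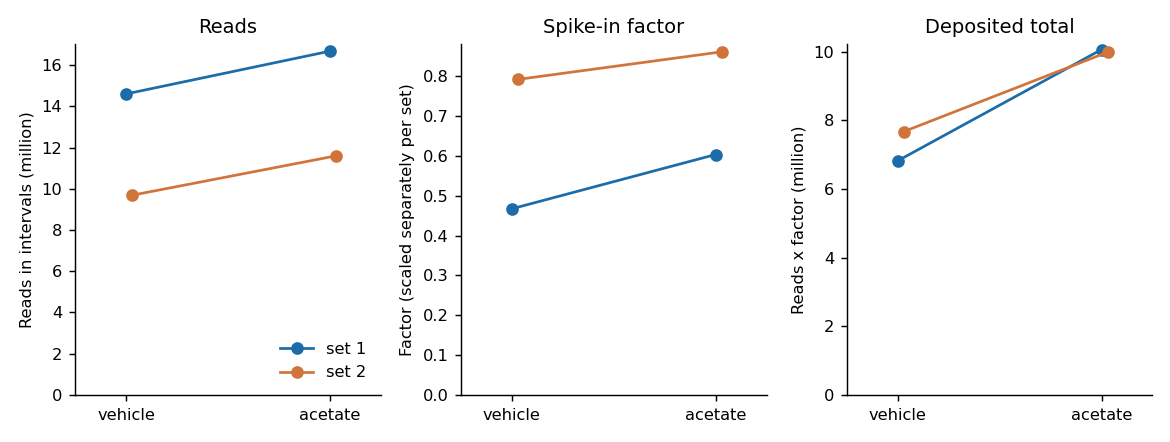
Reads in intervals, spike-in scaling factor and their product summed over intervals in the vehicle and acetate libraries, with a line joining the libraries of a set. All 3 quantities are higher with acetate in both sets, and the factor differs by 1.29-fold in set 1 and by 1.09-fold in set 2.

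Acetate added to inhibitor-treated cells gave larger ratios of the totals, and there reads and factors contributed in other proportions. With etomoxir in both members of the pair, acetate gave 1.70-fold and 1.64-fold higher totals in sets 1 and 2, with read ratios of 0.973 and 0.981 and factor ratios of 1.75 and 1.68. With etomoxir and SB204990 in both, it gave 1.60-fold and 1.57-fold. The factor ratio was 1.62 in set 1 of that pair but 0.867 in set 2, where the reads differed by 1.81-fold. The set 2 ratios with both inhibitors therefore stand apart from the other acetate ratios. Between the share ratios of acetate without inhibitors and with both inhibitors, r across the 24109 intervals with a mean scaled value of 50 or more was 0.35 in set 1 and 0.06 in set 2. Counts over both sets of that pair below rest in part on this set.

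Over single intervals the difference was broad. Of the 63903 intervals with a mean scaled value of at least 10 over the 12 libraries, 53449 (83.6%) had a higher deposited value with acetate in both sets and 792 (1.24%) a lower one. Among the 1384 strongest intervals, with a mean of at least 1000, 1382 were higher in both sets. The log2 ratios of these strong intervals ran from 0.40 to 0.69 in set 1 and from 0.23 to 0.52 in set 2 (5th to 95th percentile). Strong intervals were thus shifted by similar amounts, which were larger in set 1.

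The limma fit over all 6 treatments called 61 of these intervals higher with acetate (0.0955%) and 0 lower, at an adjusted p under 0.05, while 16905 (26.5%) had an unadjusted p under 0.05. The 61 called intervals rose by a log2 fold change of 0.71 to 1.36, with a median of 0.92 against 0.48 over all intervals tested. Intergenic intervals made up 27 of them, introns 25, promoters 8 and exons 1. All 61 were also called higher when acetate was added to etomoxir (56.4% of all intervals were) and when it was added to etomoxir and SB204990 (27.4%, with 0.00313% lower). The 61 were well marked, with a mean scaled value of at least 71.5. In a fit of only the 24109 intervals whose mean reached 50, 92.3% and 79.8% were called higher in these pairs. The limma interaction, which tests whether acetate acted differently there, called 0 of 63903 intervals for etomoxir (1142 at an unadjusted p under 0.05) and 1 for both inhibitors (157 unadjusted), so more calls there do not show a different response. These calls depended on the fit, the scaling and each library. With the set as a further term they numbered 2083 (3.26%), all higher. They numbered 0 without the variance trend and 0 with the share multiplied by the factor. They numbered 6166 for intervals whose mean reached 50, 0 with no filter, and 0, 3, 0 and 0 without the vehicle library of set 1, the vehicle library of set 2, the acetate library of set 1 and the acetate library of set 2, respectively.

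Several of the called intervals lay near each other, with uncalled intervals between some of them. With neighbours defined as called intervals within 150000 bp of each other, 15 of the 61 fell into 6 stretches, which were singled out after their values were seen. The stretch with the most calls covered Cyp1b1 (chromosome 17, 79699503 to 79840942), the gene of a cytochrome P450 that metabolises oestradiol and xenobiotics and a known target of the aryl hydrocarbon receptor. It held 14 tested intervals, of which 5 were called, and 7 had a higher and 3 a lower share in both sets. Summed over the stretch, the scaled value was 2073 and 2291 in the vehicle libraries and 3985 and 3742 in the acetate libraries of sets 1 and 2. The log2 share ratio was 0.38 and 0.33. It was 0.30 and 0.39 when acetate was added to etomoxir and 0.38 and 0.33 when it was added to both inhibitors, so all 6 acetate libraries had a larger share here than their counterparts. An interval called higher also lay near Ahr, which encodes the aryl hydrocarbon receptor (chromosome 12, 35290641 to 35295736, 233590 bp from the start site), at 106 and 91.9 scaled reads with vehicle and 226 and 187 with acetate. Genes of this pathway did not all share the pattern. The log2 share ratios of sets 1 and 2 were 0.33 and 0.33 for Cyp1b1 summed over its intervals and 0.27 and 0.41 for Ahr. They were 0.08 and 0.06 for Nqo1, -0.01 and 0.01 for Tiparp, and 0.01 and -0.46 for Ahrr. Ahrr was near the filter, with 1 interval at 6.08 and 16.6 scaled reads with vehicle and 9.05 and 15.5 with acetate. For Ahr the ratios were 0.11 and 0.07 on top of etomoxir and 0.39 and -0.07 on top of both inhibitors.

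Further stretches of 2 called intervals lay in Phldb2, which encodes a microtubule-anchoring protein (chromosome 16, 45869325 to 45931622), in Sorbs2, which encodes an adhesion and cytoskeleton adaptor (chromosome 8, 45593493 to 45641447), and upstream of Ranbp3l, which encodes a Ran-binding protein (chromosome 15, 8881159 to 8943050). They held 5, 5 and 2 tested intervals, respectively. The Sorbs2 stretch had 1542 and 1577 scaled reads with vehicle and 2904 and 2699 with acetate, higher in both sets. Its log2 share ratio was 0.35 and 0.39 in sets 1 and 2. The Ranbp3l stretch had the larger share ratio of the 3, 0.61 and 0.66, and it was also higher with acetate on top of etomoxir (0.43 and 0.67) and of both inhibitors (0.56 and 0.59).

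On the share scale the fit called 0 of 63903 intervals (0%) in either direction, with 1820 (2.85%) at an unadjusted p under 0.05, and edgeR on the recovered reads with TMM scaling also called 0 (1980 unadjusted). The median log2 change was 0.02. The same 0 was obtained for acetate on top of etomoxir, and 1 interval (0.00156%) was called lower on top of both inhibitors. In the share fit, which has no term for the set, differences between intervals in their response were small beside the spread between libraries. With the set as a term it also called 0. Over only the 4 libraries the fit with this term called 1147 intervals (634 higher, 513 lower). That choice was made after seeing the data and leaves 1 residual degree of freedom. Over all intervals the sets ranked them only weakly alike, and the likeness was larger among stronger intervals. Between the log2 share ratios of set 1 and set 2, which have no library in common, Pearson's r was 0.07 over the 63903 intervals and 0.34 over the 24109 with a mean of at least 50. It reached 0.51 over 9890 with a mean of at least 200 and 0.72 over 1384 with a mean of at least 1000. These are correlations across intervals, which are not independent replicates, and which share base composition and strength within a set. The same direction in both sets was found for 56.5% of the 63903 intervals, 63.1% of the 24109 intervals and 76.5% of the 1384. The ratios themselves were small, with an SD of 0.09 in both sets among the 1384.

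**Figure D2:**
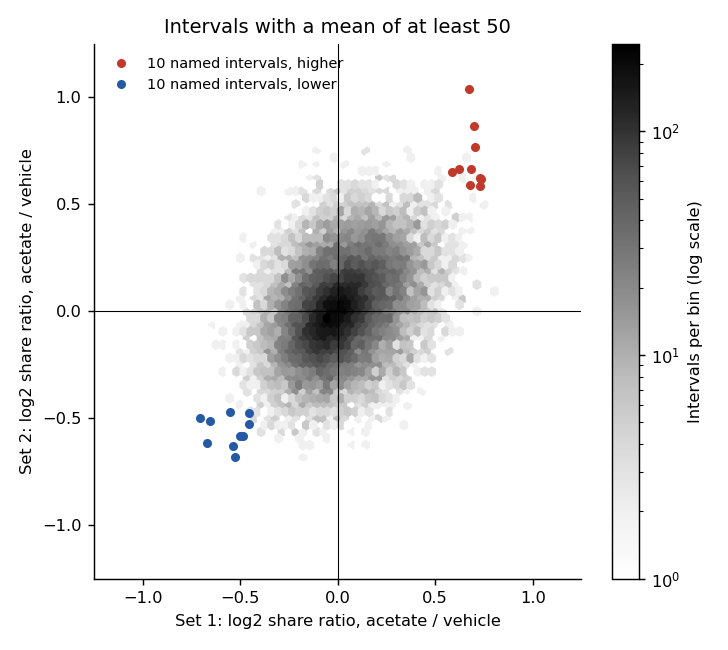
Log2 ratio of read shares, acetate to vehicle, in set 1 (x axis) and set 2 (y axis) for the 24109 intervals whose mean scaled value reached 50, as counts per bin on a log grey scale. The cloud leans upwards (r = 0.34), and the coloured points are the 10 named intervals with a higher share and the 10 with a lower share, chosen for agreeing between the sets.

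Of the 24109 intervals, 766 had a log2 share ratio of at least 0.25 in both sets and 326 had one of -0.25 or less in both. The remaining intervals had smaller ratios or ratios of unlike sign. The first group was more often intergenic than all 24088 of these intervals on assembled chromosomes, 36.7% against 24.6%, and so was the second, at 38.2% of the 325 with a known sequence. Both groups were weaker, with a median scaled mean of 85.7 and 93.8 against 156. GC content differed between them, with a median of 47.0% and 43.6% against 46.4%. The word TGANTCA, with any base at N, was sought in the central 300 bases. It was present in 15.7% of the intervals with a higher share, 22.8% of those with a lower share and 13.5% of all. This word is its own reverse complement. It includes the AP-1 site, which has C or G at N, so these are not rates of that site. The word GGGCGG, on either strand, was present in 11.7%, 5.54% and 10.8%. These shares describe the windows and do not show that a factor was bound.

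To describe intervals with large ratios in both sets, they were ranked by the smaller of their 2 set ratios on the share scale. Among intervals averaging 50 or more in the 4 libraries, with predicted genes and clone names left out, this gave 10 intervals with a higher share, near Mrgprf, Iqsec1, Slc22a15, Sync, Ranbp3l, Tfeb, Ilrun, C4b, Ptbp2 and Platr4. The 10 with a lower share lay near Trbv31, Vwc2l, Ppargc1a, Nol4, Tmem237, Las1l, Atf6, Csgalnact1, Enox1 and Usp17lb. Since their ratios chose them, those ratios are a description. The last interval inside the choice had a smaller ratio of 0.58 for the higher intervals (Platr4), and the first outside had 0.56 (Il1r2). For the lower intervals these were -0.46 (Usp17lb) and -0.45 (Cartpt). Some intervals with a higher share near predicted genes had larger ratios than these and were left out by the rule, such as 1 near Gm31822 with 0.79 and 0.90, which is named after its values were seen. Members of the higher group had a median GC content of 49.5% (39.1% to 65.2%), and those of the lower group 41.2% (36.8% to 50.3%).

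The sequences of 5 of these regions are printed below, 3 with a higher and 2 with a lower share, because the groups differed in base composition. Capitals mark CpG dinucleotides. Those of Sync and Tmem237 are RefSeq promoters (GRCm38.p6), from 250 bases before to 50 after the start site, that lay inside the interval, and the others are the central 300 bases of the interval on the plus strand. The Sync promoter lies at chr4:129287371-129287670 on the plus strand and the Tmem237 promoter at chr1:59120359-59120658 on the minus strand. The centres lie at chr7:145299738-145300037 (Mrgprf), chr15:8940253-8940552 (Ranbp3l) and chr8:68626843-68627142 (Csgalnact1).
Sync promoter: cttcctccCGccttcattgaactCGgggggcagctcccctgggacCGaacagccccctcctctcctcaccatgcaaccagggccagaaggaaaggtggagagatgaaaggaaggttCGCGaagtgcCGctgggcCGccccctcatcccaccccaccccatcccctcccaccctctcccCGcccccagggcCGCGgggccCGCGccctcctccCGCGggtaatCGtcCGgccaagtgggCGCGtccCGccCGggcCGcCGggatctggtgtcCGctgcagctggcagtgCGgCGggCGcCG
Mrgprf interval centre: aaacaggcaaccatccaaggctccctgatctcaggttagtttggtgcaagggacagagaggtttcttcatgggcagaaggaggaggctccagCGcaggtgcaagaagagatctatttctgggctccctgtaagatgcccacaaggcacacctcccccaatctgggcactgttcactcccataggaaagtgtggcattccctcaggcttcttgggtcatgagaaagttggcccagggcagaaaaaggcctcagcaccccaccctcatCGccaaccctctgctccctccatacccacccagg
Ranbp3l interval centre: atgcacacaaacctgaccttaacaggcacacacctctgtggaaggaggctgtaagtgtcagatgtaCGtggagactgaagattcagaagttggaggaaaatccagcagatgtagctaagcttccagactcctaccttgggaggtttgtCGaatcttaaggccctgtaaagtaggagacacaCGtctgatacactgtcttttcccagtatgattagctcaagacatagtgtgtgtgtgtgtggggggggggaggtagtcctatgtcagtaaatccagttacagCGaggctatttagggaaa
Tmem237 promoter: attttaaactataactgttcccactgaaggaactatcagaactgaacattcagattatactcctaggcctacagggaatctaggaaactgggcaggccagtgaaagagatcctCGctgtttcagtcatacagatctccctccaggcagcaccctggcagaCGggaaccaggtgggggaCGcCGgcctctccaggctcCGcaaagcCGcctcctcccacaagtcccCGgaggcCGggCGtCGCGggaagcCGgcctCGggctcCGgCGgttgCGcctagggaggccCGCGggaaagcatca
Csgalnact1 interval centre: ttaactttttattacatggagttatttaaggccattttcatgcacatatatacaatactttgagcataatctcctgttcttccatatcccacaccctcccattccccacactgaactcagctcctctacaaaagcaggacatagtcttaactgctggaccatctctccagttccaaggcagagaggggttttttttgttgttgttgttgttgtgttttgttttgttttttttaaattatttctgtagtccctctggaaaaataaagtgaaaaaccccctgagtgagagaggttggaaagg

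The promoters of Sync and Tmem237, whose shares went in opposite directions, were both rich in CpG, with 27 and 18 dinucleotides. At least as many were present in 15.5% and 29.7% of all 32851 RefSeq promoters, whose median was 7. The centres of the Mrgprf, Ranbp3l and Csgalnact1 intervals held 2, 4 and 0 CpG, against a median of 3 in the centres of all intervals of this strength. Over the named intervals the median CpG number in the central 300 bases was 4 for the 10 with a higher share and 1.5 for the 10 with a lower share.

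Mrgprf encodes an orphan G protein-coupled receptor. Its interval (chromosome 7, 145298532 to 145301244) is annotated as a promoter of the gene. It had 48.1 and 48.3 scaled reads in the vehicle libraries and 117 and 108 in the acetate libraries of sets 1 and 2. The acetate values were thus more than double those of vehicle in both sets, with log2 share ratios of 0.71 and 0.77. The deposited log2 fold change was 1.2 ± 0.30 (SE), with a limma adjusted p of 0.052 that just missed the threshold.

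Sync encodes syncoilin, an intermediate filament protein. Its interval (chromosome 4, 129283073 to 129290834) includes the promoter shown above. It had 106 and 141 scaled reads with vehicle and 251 and 292 with acetate, and log2 share ratios of 0.68 and 0.67. It was higher with acetate in both sets, and the deposited log2 fold change of 1.14 ± 0.23 (SE) was called, with a limma adjusted p of 0.0076.

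The interval upstream of Ranbp3l (chromosome 15, 8937755 to 8943050, 27546 bp before the start site, intergenic) had 154 and 198 scaled reads with vehicle and 377 and 398 with acetate. Its log2 share ratios were 0.73 and 0.62, and its deposited log2 fold change was 1.15 ± 0.22 (SE; limma adjusted p 0.0031). On the share scale the adjusted p was 0.58. Acetate on top of both inhibitors gave a log2 share change of 0.75 here, with an adjusted p of 0.077.

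C4b encodes a complement component, and its interval (chromosome 17, 34712333 to 34716573) lies 14812 bp from the C4b start site and overlaps Tnxb, which encodes a tenascin. It was also called on the deposited scale, at 1.10 ± 0.26 (SE; limma adjusted p 0.036). The calls of Sync, Ranbp3l and C4b were lost with no filter, without the trend and with the share multiplied by the factor. Leaving out any 1 of the 4 libraries also ended them, except that Ranbp3l kept its call without the vehicle library of set 2. The C4b interval had 52.4 and 87.9 scaled reads with vehicle and 124 and 173 with acetate. The interval assigned to Tfeb, which encodes a regulator of lysosomal genes, is annotated as a promoter of that gene (chromosome 17, 47761109 to 47764018). It had 30.4 and 35.7 scaled reads with vehicle and 69.4 and 74.1 with acetate, with an adjusted p of 0.079.

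The intervals with a lower share were not called on the deposited scale, and their direction depended on the scale. With the share multiplied by the factor, all 10 were lower with acetate in both sets, by a log2 ratio of -0.34 to -0.09 in set 1 and -0.56 to -0.35 in set 2. On that scale 200 of the 24109 intervals (0.83%) were lower in both sets. The share chose the 10, so this is a description, and none was called (limma adjusted p 1.00). Tmem237 encodes a protein of the ciliary transition zone, and its promoter interval (chromosome 1, 59118614 to 59121457) had 135 and 149 scaled reads with vehicle and 140 and 129 with acetate. It was higher in set 1 and lower in set 2, and the deposited log2 fold change was -0.07 ± 0.24 (SE; limma adjusted p 0.82), while the log2 share ratios were -0.50 and -0.58, and -0.13 and -0.46 with the share multiplied by the factor. The interval in an intron of Csgalnact1, which encodes a chondroitin sulphate synthase (chromosome 8, 68624066 to 68629919), had 147 and 156 scaled reads with vehicle and 148 and 146 with acetate. An intergenic interval 362413 bp from the start of Ppargc1a, which encodes a coactivator of mitochondrial genes (chromosome 5, 51189017 to 51193938), had 89.3 and 105 with vehicle and 91.1 and 84.4 with acetate, and ratios of -0.16 and -0.56 with the share multiplied by the factor. The deposited log2 fold changes of the 10 lower intervals lay between -0.18 and 0.00, with adjusted p of 0.65 to 1.00.

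The other acetate pairs, which share no library with this comparison, were used to see whether the named intervals behaved alike there. Of the 10 with a higher share, 10 were higher in both sets when acetate was added to etomoxir, against 39.0% of all 24109 intervals. With both inhibitors 6 were, against 21.6%. By set, 9 were higher with both inhibitors in set 1 (54.4% of all) and 7 in set 2 (49.8%). Of the 10 with a lower share, 8 were lower in both sets on top of etomoxir (32.7% of all) and 6 on top of both inhibitors (17.4%), with 8 in set 1 (45.6%) and 8 in set 2 (50.2%). No named interval passed an adjusted p of 0.05 on the share scale in either pair. The median share changes were 0.38 and 0.27 for the higher group and -0.18 and -0.24 for the lower group. The plot of all 6 ratios shows Ranbp3l and Csgalnact1 keeping their direction and much of their size throughout, whereas others, such as Ilrun with both inhibitors and Usp17lb with etomoxir, had unlike signs in the sets.

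**Figure D3:**
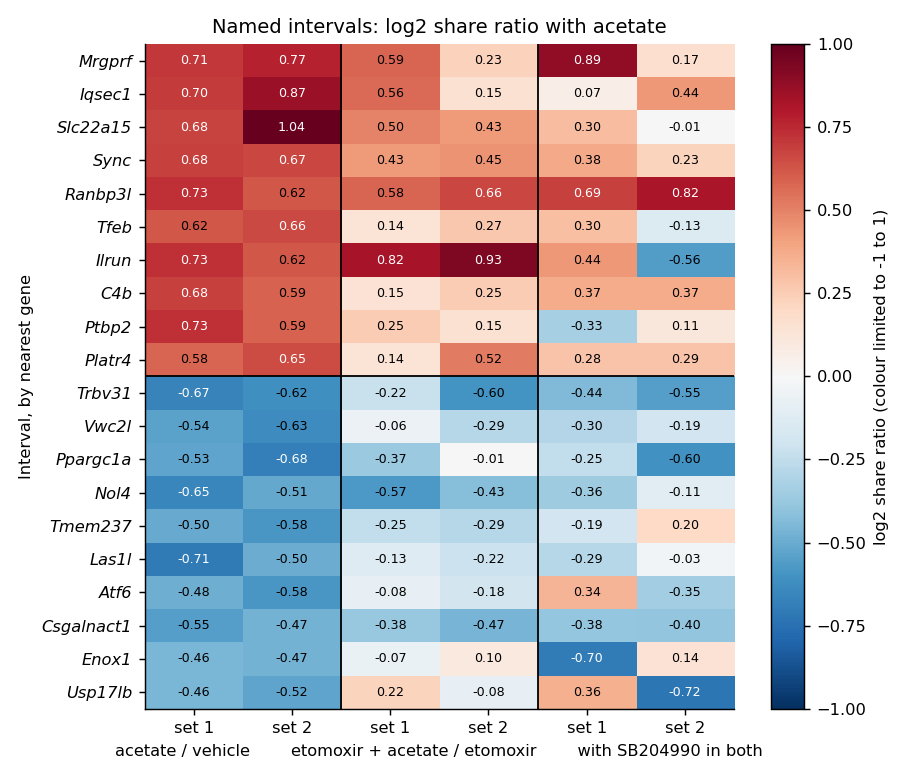
Log2 share ratio with acetate for the 20 named intervals (rows, by nearest gene) in cells without inhibitors, with etomoxir, and with etomoxir and SB204990, for each set. Red is a higher and blue a lower share with acetate. The first 2 columns chose the rows, and the 10 upper rows are also above 0 in both etomoxir columns.

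Over genes, with the intervals of a symbol summed, the deposited fit called 0 of 19458 genes (0%), with 8341 (42.9%) at an unadjusted p under 0.05, and edgeR with the factor as an offset called 0 (8383 unadjusted). With the set as a further term in the limma fit, since the sets were scaled separately, 3888 genes (20.0%) were called higher and 0 lower. Within sets, 18389 genes (94.5%) had a higher deposited value with acetate in both. With acetate on top of etomoxir, 78.2% of genes were called higher, and on top of both inhibitors 57.7% were called higher and 0.00514% lower. The share fit called 0 (0%), with 689 (3.54%) unadjusted. By the same ranking, the 10 genes with the most consistently higher share were Mrgprf, Mpp2, C4b, Slfn8, Ranbp3l, Platr4, Pax8, Svs5, Raet1d and Cavin2. Cavin2, which encodes a caveolar coat protein, had 250 and 250 scaled reads with vehicle and 481 and 423 with acetate. Slfn8, a Schlafen gene, had 90.7 and 113 with vehicle and 190 and 212 with acetate. Ranbp3l had 400 and 477 with vehicle and 843 and 875 with acetate over 8 intervals. All 3 were higher in both sets, and their deposited log2 fold changes were 0.85, 0.98 and 0.97, each with a limma adjusted p of 0.10, and 0.040, 0.040 and 0.012 with the set as a term.

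The 10 genes with the most consistently lower share were Tmem237, Asphd2, Zc3h13, Enox1, P2ry13, Adcyap1r1, Mrc1, Asb4, Ccdc66 and Prox2os. Asb4, which encodes a ubiquitin ligase adaptor and was the strongest of them, had 1235 and 1514 scaled reads with vehicle and 1434 and 1521 with acetate, with log2 share ratios of -0.35 and -0.37. Mrc1, which encodes the mannose receptor of macrophages, had 166 and 226 with vehicle and 191 and 208 with acetate. Adcyap1r1, the gene of a neuropeptide receptor, had 345 and 449 with vehicle and 388 and 451 with acetate. Within each set these values differed by less than the totals. Asb4 and Adcyap1r1 were higher with acetate in both sets, and Mrc1 was higher in set 1 and lower in set 2.

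All 18 tested members of the list of acetate uptake and acetyl-CoA supply had a positive deposited fold change, as did 19240 of 19458 genes (98.9%), and 0 of 18 were called. Their median was 0.43 against 0.48 over all genes, and on the share scale 5 were higher and 8 lower in both sets (34.3% and 28.4% of all genes). With the set as a term 3 were called (16.7%), against 20.0% of all genes. Acss2 was weakly marked, with 27.1 and 33.3 scaled reads with vehicle and 50.1 and 47.4 with acetate, and log2 share ratios of 0.32 and 0.13. Acly had 437 and 540 with vehicle and 656 and 695 with acetate, which is the shift of the whole genome, with share ratios of 0.03 and -0.02. Slc25a1, the mitochondrial citrate exporter, had 404 and 466 with vehicle and 570 and 530 with acetate, with -0.06 and -0.19.

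The enzymes that write, erase and read acetyl-lysine were not called either, at 0 of 12 acetyltransferases, 0 of 17 deacetylases and sirtuins, and 0 of 11 readers. With the set as a term 1, 4 and 5 were called higher, against 20.0% of all genes. Their median share changes were -0.02, 0.02 and 0.02. Ep300 had 638 and 605 scaled reads with vehicle and 826 and 729 with acetate, with share ratios of -0.19 and -0.11. Crebbp, its paralogue, had 208 and 232 with vehicle and 343 and 330 with acetate, with 0.16 and 0.13. Over the 12 acetyltransferases the share changes ran from -0.20 to 0.58. The highest was that of Ncoa1, a weakly marked coactivator gene with 19.6 and 15.1 scaled reads with vehicle and 33.8 and 38.8 with acetate.

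Matrix and adhesion genes included 4 that the study itself singled out: Col1a1, Postn, Itga5 and Sparc. The study reported higher peaks at these genes with acetate in these same samples, so their direction is not independent evidence. Col1a1, a fibrillar collagen chain, had 487 and 566 scaled reads with vehicle and 854 and 874 with acetate, and its share was higher by 0.25 and 0.25. Its deposited log2 fold change was 0.72 ± 0.21 (SE; limma adjusted p 0.10). A higher share was found in each of its 3 strongest intervals. The share ratios were 0.45 and 0.31 in the interval at chromosome 11, 94925565 to 94934595, which lies 8932 bp before the start, 0.35 and 0.33 at the promoter and 0.15 and 0.18 farther upstream. Postn, a matricellular protein, had 1204 and 1280 with vehicle and 1732 and 1581 with acetate, with share ratios of -0.04 and -0.08. Sparc had 1008 and 1242 scaled reads with vehicle and 1394 and 1604 with acetate, with share ratios of -0.09 and -0.01. Itga5, an integrin chain, had 496 and 655 with vehicle and 833 and 819 with acetate, with 0.19 and -0.06. On the deposited scale each of the 4 genes was thus higher with acetate in both sets, as were 94.5% of all genes, and none was called. With the set as a term Col1a1 (limma adjusted p 0.040) and Itga5 (0.046) were called, and Postn (0.063) and Sparc (0.062) were not. Only Col1a1 of the 4 had a higher share in both sets.

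Col1a1 was part of a wider pattern among the collagen chains. Of 16 tested, 13 had a higher share in both sets and 2 a lower one, against 34.3% and 28.4% of all genes. Their median share ratio was 0.11 in set 1 and 0.10 in set 2, against 0.01 and 0.01 over all genes. Col5a1 had 34.6 and 53.9 scaled reads with vehicle and 65.2 and 89.6 with acetate (0.35 and 0.35 on the share scale), and Col4a2 had 209 and 342 with vehicle and 370 and 482 with acetate (0.26 and 0.11). Col4a1, with 7075 and 8364 with vehicle and 10734 and 11038 with acetate, was near the median of all genes, at 0.04 and 0.02, and Col6a3 was lower, at -0.33 and -0.14. No chain was called on either scale without the set as a term. With it, 8 of the 16 were called higher on the deposited scale, against 20.0% of all genes, and Col1a1 and Col4a1 were among them. Such a rate was not particular to collagens. It was 9 of 14 for AP-1 and immediate early genes, 11 of 22 for the TGF-beta pathway and 13 of 29 for epithelial genes. Other lists had lower rates, such as 3 of 27 for sterol and fatty acid synthesis. The median GC content of the intervals of the collagen genes was 51.1%, against 46.9% over all genes, and its part in the result was not tested. When acetate was added to etomoxir, 10 of the 16 had a higher share in both sets and 1 a lower one (44.3% and 27.1% of all genes). On top of both inhibitors, 6 were higher and 0 lower (15.2% and 19.4%), with medians of 0.11 in set 1 and -0.10 in set 2 against 0.06 and -0.11 over all genes.

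Cytokine and chemokine genes also had mostly a higher share. Of 22 cytokines and chemokines tested, 15 were higher and 4 lower in both sets (34.3% and 28.4% of all genes), with medians of 0.08 and 0.07, and 0 were called. With the set as a term 11 were called on the deposited scale, against 20.0% of all genes. Tnf had 187 and 246 scaled reads with vehicle and 369 and 388 with acetate, and share ratios of 0.42 and 0.28. Ccl2, a monocyte attractant, had 337 and 390 with vehicle and 580 and 616 with acetate, at 0.22 and 0.28. Csf1, the growth factor of macrophages, had 2183 and 2569 with vehicle and 3638 and 3702 with acetate, at 0.18 and 0.15. Strongly marked members such as Cxcl1 (0.00 and -0.04), Csf3 (-0.11 and -0.07) and Lif (-0.06 and -0.04) did not follow them. The intervals of these genes had a median GC content of 45.8%, below that of all genes. On top of etomoxir 14 of the 22 were higher and 5 lower in both sets, and on top of both inhibitors 9 were higher and 1 lower. Over all genes these were 44.3% and 27.1% with etomoxir and 15.2% and 19.4% with both inhibitors. Of 15 matrix proteases and inhibitors, 8 were higher and 4 lower, with medians of 0.05 in set 1 and 0.00 in set 2, and the list lay above the median of all genes in 5 of 7 settings.

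Most genes of sterol and fatty acid synthesis had a lower share. Of 27 tested, 4 had a higher and 16 a lower share in both sets (34.3% and 28.4% of all genes), with medians of -0.07 and -0.03. All 27 had a positive deposited fold change, as did 98.9% of all genes, and 0 were called. With the set as a term 3 were called (11.1%), against 20.0% of all genes. Insig1, a sterol-regulated inhibitor of the pathway, had 407 and 388 scaled reads with vehicle and 465 and 437 with acetate, and share ratios of -0.37 and -0.21. Hmgcs1, an early enzyme of cholesterol synthesis, had 202 and 251 with vehicle and 259 and 257 with acetate, at -0.20 and -0.35. Cyp51 (-0.28 and -0.26), Idi1 (-0.12 and -0.30) and Sqle (-0.08 and -0.21) had lower shares as well. Srebf1 had unlike signs in the sets (-0.01 and 0.14). With acetate on top of etomoxir, 6 were higher and 11 lower in both sets (44.3% and 27.1% of all genes), and on top of both inhibitors 5 were higher and 14 lower (15.2% and 19.4%). Their median GC content was 47.8%, close to that of all genes.

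The remaining lists are shown in the plot of list medians. Genes of the tricarboxylic acid cycle had medians of 0.01 and 0.06 in sets 1 and 2, and histone acetyltransferases 0.00 and -0.05. Among the 10 tested transcription factors of the epithelial-mesenchymal transition, 1 was higher and 3 lower in share in both sets (34.3% and 28.4% of all genes). With the set as a term 2 were called, the same rate as the 20.0% of all genes. Zeb1 and Snai1 were at or under 28.5 scaled reads in every library, which leaves their ratios to counting noise. Twist1 had 737 and 643 with vehicle and 980 and 840 with acetate, with share ratios of -0.15 and 0.01. Epithelial genes had medians of 0.04 and 0.03, with 14 of 29 higher in both sets (34.3% of all genes). Cdh1, the epithelial cadherin, had 2149 and 2337 with vehicle and 3269 and 3104 with acetate, with 0.04 and 0.03, and Vim, the mesenchymal intermediate filament, had 573 and 578 with vehicle and 730 and 717 with acetate, with -0.21 and -0.07. Targets of PPAR and genes of fatty acid oxidation differed between the sets, with medians of 0.08 and -0.06. Of 25 tested, 8 had a higher and 8 a lower share in both sets (34.3% and 28.4% of all genes), and 23 had a positive deposited fold change. Within them Cpt1a had ratios of 0.18 and 0.11 and Pdk4 of -0.02 and -0.14, which are not the extremes of this list. The AP-1 gene Fos had 0.26 and 0.27, and Jun had -0.11 and -0.05.

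**Figure D4:**
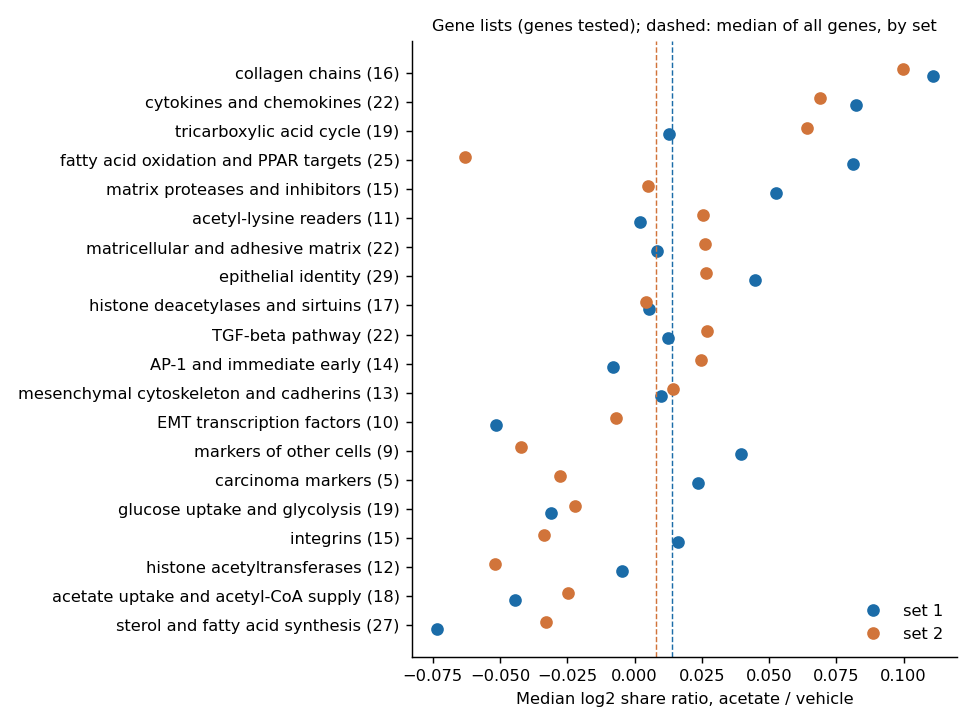
Median log2 share ratio, acetate to vehicle, over the tested genes of each list (number in parentheses) in set 1 and set 2, with dashed lines at the median of all genes in each set. Collagen chains and cytokines lie highest in both sets, and sterol and fatty acid synthesis lies lowest in set 1.

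The label of the cells was checked against marker genes. Of 7 carcinoma markers, 5 passed the filter, with deposited fold changes of 0.41 to 0.63 in the same direction, and Krt8 had 3246 and 3523 scaled reads with vehicle and 4632 and 4341 with acetate. Of 13 markers of other cells, 9 passed the filter. They included Pecam1 of endothelium, at 587 and 658 with vehicle and 912 and 884 with acetate, while Ptprc of leukocytes had 50.9 to 77.3 in the 4 libraries. Their median share ratios were 0.04 and -0.04, and 3 of the 9 were higher and 3 lower in both sets. H3K27ac is not a measure of transcripts, and cells of another type cannot be told from open chromatin of the line itself.

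By annotation class, the H3K27ac signal of all classes was shifted alike. The deposited log2 ratio in set 1 was 0.55 for promoters, 0.56 for introns, 0.56 for exons, 0.56 for transcription ends and 0.57 for intergenic intervals. In set 2 it was 0.38, 0.38, 0.39, 0.40 and 0.37 in the same order. The share of reads in promoters was thus lower by 0.01 (log2) in set 1 and by less in set 2. Introns held 52.1% of the reads with vehicle and 52.1% with acetate in set 1, and 52.4% and 52.3% in set 2.

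Differences by position and base composition were small. Intervals whose centre lay within 1000 bp of a start site had a lower share (-0.02 and -0.02), and those 5000 to 20000 bp away a higher one (0.01 and 0.01). Intervals over 100000 bp away had a lower share, at -0.01 and -0.03. Across 5 equal groups by GC content, among those whose mean reached 50, the median share ratio went from -0.02 and -0.02 in the lowest group (median GC 41.0%) to 0.04 and 0.06 in the highest (52.6%). The same order was found with acetate on top of etomoxir, from -0.02 and -0.03 to 0.07 and 0.09. Across 5 equal groups by CpG density there was no steady order. The median ratio was 0.00 and -0.01 in the lowest group, 0.03 and 0.02 in the third, and -0.01 and 0.00 in the highest. Centring the ratios within 20 GC bins left 0 calls on the share scale. By chromosome, 17 of 20 share ratios had the same sign in both sets, and all were small. Chromosome X was lower by -0.03 and -0.04, with intervals of a median GC content of 44.3%, and chromosome 8 was higher by 0.02 and 0.02, with 47.7%. The part of base composition in these trends was not tested.

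**Figure D5:**
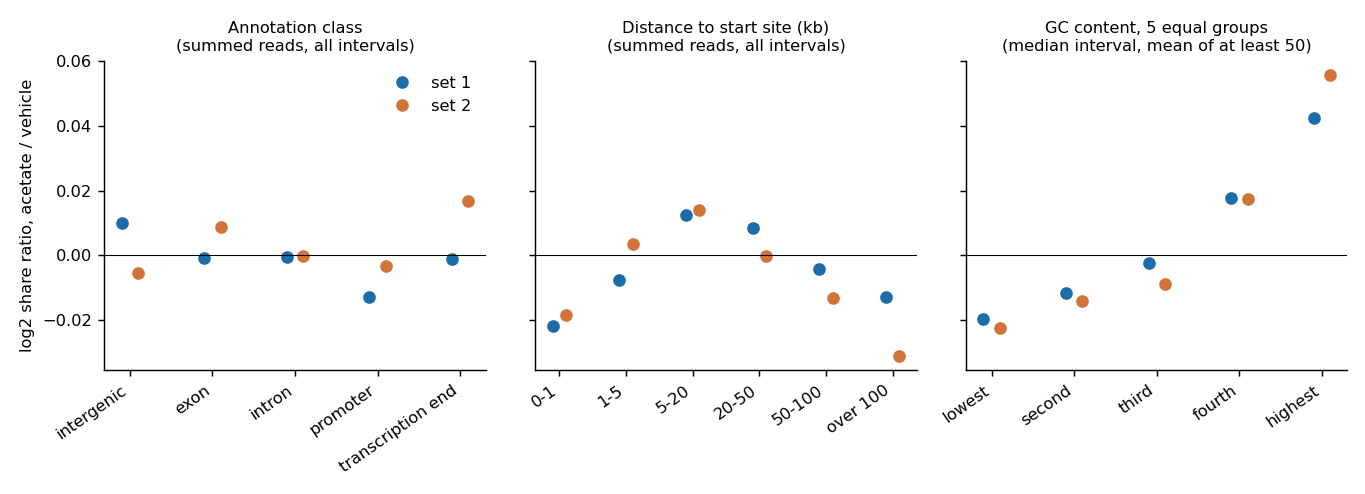
Log2 share ratio, acetate to vehicle, in set 1 and set 2 by annotation class, by distance to the nearest start site and by GC content in 5 equal groups. The first 2 panels use reads summed over all intervals and the last uses the median of intervals whose mean reached 50. All points lie within 0.06 of 0, and only GC content gives a steady order in both sets, from -0.02 to 0.06.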

How the data were processed

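H3K27ac ChIP-seq values of 12 libraries from 4T1 cells were analysed, 4 of them for the comparison of acetate with vehicle. The authors' alignments came from nf-core/chipseq and a joint human (GRCh38) and mouse (mm10) genome, and the submitters' processing notes also name deepTools. Whether intervals were called on pooled libraries is not given in the sources used here. The deposited signal is, per interval, the count of reads multiplied by a spike-in factor that the authors computed from the percentage of human reads, divided by the highest. Dividing each column by its smallest step gave whole reads for 100% of values in each library (tolerance 0.001), so depth was known.

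Intervals were tested on log2(deposited value + 1) and on log2(reads per 1000000 of the column sum + 0.1). Fold changes on these scales understate those of weak intervals. Both scales used limma 3.58.1 with a mean-variance trend and 6 treatment means over 12 libraries, after a filter of a mean deposited value of at least 10. Benjamini-Hochberg adjusted p under 0.05 was called. This fit has no term for the sets, whose factors lie on separate scales, and a fit with the set as a term was an alternative. A gene is the sum of intervals with its symbol in the deposited annotation, which is not proof that the gene is regulated by them. edgeR 4.0.16 on the recovered reads was an alternative, with R 4.3.3 and Python 3.11.15. It called 78 intervals with the factor as an offset and 0 with TMM. The fits were also run on simulated reads that had no difference between sets, so that run does not bear on the choice between the fits.

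Named intervals had a mean of at least 50 in the 4 libraries and an informative gene symbol. They were ranked by the smaller absolute share ratio of the 2 sets where both had 1 sign, with 10 in each direction and 1 per symbol. Named genes had a mean of at least 100. The genes the study names and example genes of each list were added. Annotated promoters and transcription ends are those of the deposited table. Members and lists were chosen with earlier results of these data known, and the stretches of called intervals and the genes of the aryl hydrocarbon receptor pathway after their values were seen. Alternatives were other filters, pseudocounts, scalings, fits and left-out libraries. Values of 2 list members are not reported here.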

Additional observations from a re-analysis of the deposited data

How the results depend on the processing

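The direction of the total held in each alternative, with a log2 ratio of 0.386 to 0.555 on leaving out 1 library. With the share multiplied by the factor it was 0.245, and it was then 0.237 for promoters, 0.249 for exons, 0.245 for introns, 0.253 for transcription ends and 0.247 for intergenic intervals. The number of intervals called on the deposited scale depended on the fit. Against 61, it was 0 with no filter, 6166 with a mean of at least 50, 0 without the variance trend, 0 with the share multiplied by the factor (3 with an unadjusted p under 0.05), 14916 when only the 4 libraries were fitted and 0 to 3 on leaving out 1 library. Genes called on the deposited scale went from 0 to 11973 when only the 4 libraries were fitted. The cause was not tested. The intervals weakest in the vehicle libraries, the lowest of 4 equal groups, had a log2 share ratio of 0.285, but 0.00488 when strength came from the 8 other libraries, which takes the choice away from the values compared. Of the 20 gene lists, markers included, 4 stayed on their side of the median of all genes in 7 of 7 settings: collagen chains, cytokines and chemokines, sterol and fatty acid synthesis, and histone acetyltransferases. The number of lists above that median was 12, and 7 to 14 on leaving out 1 library, with 7 without the vehicle library of set 2 and 7 without the acetate library of set 1.

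The replicate number was also fitted as a block. The differences between sets correlated from -0.33 to 0.60 over 15 pairs of treatments and exceeded 0.1 in 6. For acetate and vehicle it was 0.59, and with etomoxir and SB204990 it was 0.59 for vehicle and 0.60 for acetate. Since not every pair of treatments exceeded 0.1 and the labels give the number no meaning, the numbers were not taken to pair the libraries. The main fit therefore counts differences between sets as spread, also those that vehicle and acetate shared. With the replicate block, 2083 intervals and 3888 genes were called on the deposited scale. On the share scale the block called 0. Restricted to the 4 libraries, a choice made after seeing the data that leaves 1 residual degree of freedom, it called 1147 intervals and 1469 genes, and 1371 intervals with GC-centred ratios.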
